A study of Mus musculus with 10 samples.

Results

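The Schwann cell lineage genes described here are *Sox10*, *Foxd3*, *Fabp7*, *S100b*, *Cdh19*, *Erbb3* and *Mbp*, 7 of the 53465 genes counted in bulk RNA-seq of the E14.5 mouse pinna prominence. They were listed by symbol, and no threshold on their values entered the rule. Each symbol led to 1 Ensembl identifier of the count table, and all 7 genes passed the filter on low counts that left 16426 genes for testing. The libraries came from 5 wild-type (WT) embryos and from 5 *mEC1dup/dup* embryos, named knock-in in the sample labels. *mEC1* is a mouse enhancer of the transcription factor gene *Hmx1*, and *mEC1dup/dup* embryos carry an additional copy of it on both alleles, placed there by CRISPR/Cas9. Both groups were dissected at E14.5, from mouse lines kept on a C57BL/6J background, and no other allele or treatment is given for either. Mice with the insertion on both alleles came from matings in which each parent carried it on 1 allele. The whole forming pinna was homogenized, so each library mixes all of its cell types.

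Schwann cells are the glia of peripheral nerves. They arise from neural crest cells that travel along growing axons, pass through a precursor and an immature stage, and later either wrap large axons in myelin or hold bundles of thin ones. Neuregulin on the axon, read by the ErbB2 and ErbB3 receptor pair on the glial cell, keeps the precursors alive, and SOX10 is needed for glial identity at every stage. In a mid-gestation pinna, sensory nerves with their precursors are growing into the tissue and myelin is not yet formed. The same neural crest lineage also gives rise to the melanoblasts of the skin.

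Total counts ranged from 17461544 to 18462073 per library, so depth was nearly equal. The genotype labels were checked by *Hmx1*, which had 21.7 to 29.1 CPM (counts scaled to library size) in WT and 52.8 to 77.5 CPM in *mEC1dup/dup*, a log2 fold change, *mEC1dup/dup* against WT, of 1.31 (standard error, SE, 0.10, Benjamini-Hochberg adjusted p = 0.000127 in the quasi-likelihood test of edgeR). The groups also differed in measures other than genotype. *Xist*, the transcript of the inactive X chromosome, had 2 to 5 counts in WT and 12812, 19040, 18165, 2096 and 0 counts in *mEC1dup/dup* replicates 1 to 5, and the embryonic share of all globin counts was 18.4% to 23.3% in WT and 32.5% to 35.6% in *mEC1dup/dup*. The globin share separated the genotypes in every library, and *Xist* did so in all but *mEC1dup/dup* replicate 5. Differences between the groups given below can therefore not be told apart from differences in these measures. A pair of libraries stood apart in genes of other tissues. WT replicate 4 had a summed level of 16 neuron and axon genes of 1543 CPM, against 316 to 668 CPM in the other WT libraries. *mEC1dup/dup* replicate 1 had a summed level of 13 chondrocyte genes of 3189 CPM, against 6911 to 9402 CPM in the other *mEC1dup/dup* libraries, and of 11 inner ear genes of 71.7 CPM, against 314 to 531 CPM.

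None of the 7 Schwann cell lineage genes passed the test for a difference between the genotypes. A gene was called different where its adjusted p did not exceed 0.05 and its average log2 CPM was 1 or more, and 1.81% of all tested genes were called lower and 0.834% called higher in *mEC1dup/dup*. No Schwann cell lineage gene was called in either direction by edgeR's quasi-likelihood test, by the Wald test of DESeq2 or by limma-voom. At an unadjusted p under 0.05, edgeR and limma-voom gave 0 of the 7 and DESeq2 gave 1, *S100b*, where 16.2% of all tested genes passed in edgeR. The WT and *mEC1dup/dup* values overlapped for all 7 genes, while the groups did not overlap in 5.07% of all tested genes. Log2 fold changes lay between -0.79 and 0.04 with a median of -0.08, against a median of -0.00415 over all tested genes. In whole tissue, fewer cells of a type and less RNA per cell cannot be told apart. The methods state for the mouse work in general that replicates were sibs of different litters, the labels tie no library to a litter, and p-values measure the spread between these 10 libraries.

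**Figure D1:**
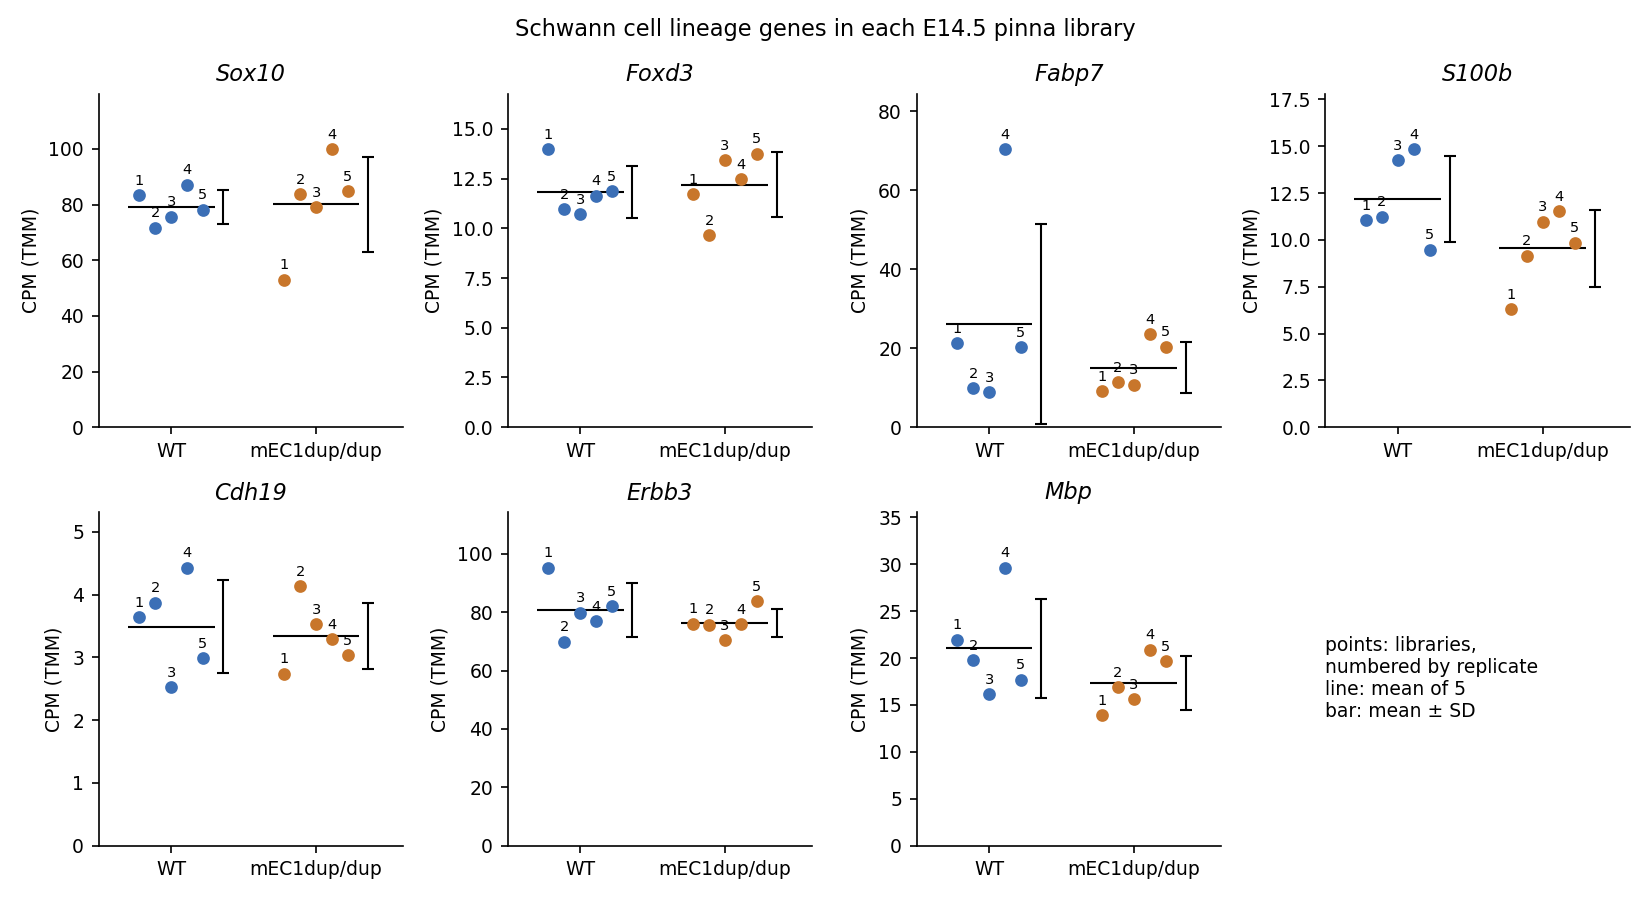
CPM (TMM-normalized, y axis, linear from 0) of the 7 Schwann cell lineage genes in each WT (blue) and *mEC1dup/dup* (orange) library. Points are libraries numbered by replicate, lines are means of 5 and bars are mean ± SD. The groups overlap in every panel, and *Fabp7* in WT replicate 4 stands far above the other 9 libraries.

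Levels of different genes were compared as CPM per kilobase of annotated exonic sequence. *Sox10* was the most abundant by this measure, with 23.8 ± 1.83 CPM per kb in WT and 24.1 ± 5.13 in *mEC1dup/dup* (SD, n = 5 each). *Erbb3* had 12.8 ± 1.47 CPM per kb in WT and 12.1 ± 0.749 in *mEC1dup/dup* (SD, n = 5 each). *Fabp7* had 20.4 ± 19.9 CPM per kb in WT and 11.8 ± 5.06 in *mEC1dup/dup* (SD, n = 5 each), and its single values overlapped those of *Sox10* and *Erbb3* and, in WT, of *S100b*, so it has no fixed place in this order. *S100b* and *Foxd3* had ranges that overlapped in both genotypes. *S100b* had 6.09 ± 1.15 CPM per kb in WT and 4.79 ± 1.03 in *mEC1dup/dup*, and *Foxd3* had 5.09 ± 0.555 and 5.25 ± 0.704 (SD, n = 5 each). *Mbp* followed with 2.16 ± 0.542 CPM per kb in WT and 1.78 ± 0.295 in *mEC1dup/dup*, and *Cdh19* was lowest with 0.639 ± 0.137 and 0.613 ± 0.0968 (SD, n = 5 each). The lowest *Mbp* value, 1.42 CPM per kb, lay above the highest *Cdh19* value, 0.811. The exonic length of *Mbp* is summed over 69 annotated transcripts, not all of which a given cell uses, so its level per kilobase is a low estimate. The smallest count of any of the 7 genes in any library was 45, for *Cdh19*.

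*Sox10* encodes the HMG-box transcription factor that specifies and maintains peripheral glia. It lies on the minus strand of chromosome 15 of GRCm39 from 79039108 to 79049469 (ENSMUSG00000033006). Its level was 83.3, 71.7, 75.7, 87.1 and 78.1 CPM in WT replicates 1 to 5, and 53.0, 83.8, 79.1, 99.9 and 84.8 CPM in *mEC1dup/dup* replicates 1 to 5. The lowest and the highest values both came from *mEC1dup/dup* embryos, and the WT embryos all lay between them. The log2 fold change was 0.02 (SE 0.12, 95% interval -0.25 to 0.29, adjusted p = 0.961 in the edgeR test), which as a ratio bounds *mEC1dup/dup* between 0.840 and 1.22 times WT. *mEC1dup/dup* replicate 1 held the estimate down: without it the log2 fold change was 0.14, and without *mEC1dup/dup* replicate 4, the highest library, it was -0.07.

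*Foxd3* encodes a forkhead factor of premigratory neural crest cells that persists in glial precursors. It is a single-exon gene on the plus strand of chromosome 4 from 99544536 to 99546859 (ENSMUSG00000067261). Its level was 14.0, 11, 10.7, 11.6 and 11.9 CPM in WT replicates 1 to 5, and 11.7, 9.64, 13.4, 12.5 and 13.8 CPM in *mEC1dup/dup* replicates 1 to 5. The values of both genotypes were interleaved over a narrow range. Its log2 fold change was 0.04 (SE 0.11, 95% interval -0.19 to 0.28, adjusted p = 0.883 in the same test). The antisense transcripts *Gm12688* and *Foxd3os* overlap 3.96% and 7.01% of its exonic bases. Both library kits named for these samples leave reads without strand, and how reads shared with an antisense transcript were counted is not given.

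*Erbb3* encodes the receptor through which Schwann cell precursors read axonal neuregulin. It lies on the minus strand of chromosome 10 from 128403392 to 128425811 (ENSMUSG00000018166). Its level was 95.3, 69.9, 79.8, 76.9 and 82.0 CPM in WT replicates 1 to 5, and 76.0, 75.8, 70.5, 75.9 and 83.7 CPM in *mEC1dup/dup* replicates 1 to 5. This was the steadiest of the 7 genes in *mEC1dup/dup*, where the highest library was 1.19 times the lowest. At -0.08, its log2 fold change had the narrowest interval of the 7 (SE 0.07, 95% interval -0.24 to 0.07, adjusted p = 0.642 in the edgeR test), which bounds the ratio of *mEC1dup/dup* to WT between 0.849 and 1.05. *Erbb3* is also expressed in epithelia, and bulk counts do not separate the sources.

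The partners of *Erbb3* in neuregulin signalling did not pass the test either. Of 7 other ligand and receptor genes, 0 were called by edgeR, by DESeq2 or by limma-voom, and 1, *Egfr*, had an unadjusted p under 0.05 in edgeR. *Nrg1*, the ligand carried by axons, had 6.88 ± 2.20 CPM in WT and 7.15 ± 0.623 CPM in *mEC1dup/dup* (SD, n = 5 each), so that its log2 fold change was 0.06 (SE 0.19, adjusted p = 0.917). *Erbb2*, the co-receptor that signals for ErbB3, had 200 ± 17.7 CPM in WT and 191 ± 2.76 CPM in *mEC1dup/dup* (SD, n = 5 each), so that its log2 fold change was -0.07 (SE 0.05, adjusted p = 0.607). *Erbb4*, an alternative neuregulin receptor, stood at 3.53 ± 1.19 and 3.29 ± 0.622 CPM (SD, n = 5 each). *Egfr*, the receptor for EGF-type ligands, had 69.6 ± 5.80 and 61.7 ± 1.57 CPM (SD, n = 5 each), so that its log2 fold change was -0.17 (SE 0.06, adjusted p = 0.124). Without WT replicate 4, *Egfr* was called lower (log2 fold change -0.23, adjusted p = 0.00646), as it was without both WT replicate 4 and *mEC1dup/dup* replicate 1 (log2 fold change -0.22, adjusted p = 0.0105).

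*Cdh19* encodes a cadherin found on Schwann cell precursors. It lies on the minus strand of chromosome 1 from 110815039 to 110905349 (ENSMUSG00000047216). Its level was 3.64, 3.88, 2.53, 4.43 and 2.99 CPM in WT replicates 1 to 5, and 2.74, 4.13, 3.53, 3.29 and 3.03 CPM in *mEC1dup/dup* replicates 1 to 5. The groups covered nearly the same range. *Cdh19* had a log2 fold change of -0.06 (SE 0.18, 95% interval -0.45 to 0.32, adjusted p = 0.904 in the edgeR test), and at 45 to 80 counts per library the ratio of *mEC1dup/dup* to WT was bounded only between 0.733 and 1.25.

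*Fabp7*, which encodes the brain lipid-binding protein of glial precursors and of the satellite glia around sensory neurons, had the largest fold change and the largest spread. It lies on the plus strand of chromosome 10 from 57660956 to 57664554 (ENSMUSG00000019874). Its level was 21.2, 9.85, 8.87, 70.5 and 20.3 CPM in WT replicates 1 to 5, and 9.14, 11.5, 10.8, 23.6 and 20.4 CPM in *mEC1dup/dup* replicates 1 to 5. Apart from WT replicate 4, the WT libraries lay within the range of the *mEC1dup/dup* libraries or just below it. In the fit over all libraries the log2 fold change was -0.79 (SE 0.50, 95% interval -1.87 to 0.29, adjusted p = 0.485 in the edgeR test), and without WT replicate 4 it was 0.0017 (adjusted p = 0.999). With limma-voom over all libraries it was -0.45 (adjusted p = 0.726). The group means were 26.1 ± 25.4 and 15.1 ± 6.47 CPM (SD, n = 5 each), and the SD in WT was nearly as large as the mean.

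*S100b* encodes a calcium-binding protein of Schwann cells that cartilage cells also make. It lies on the plus strand of chromosome 10 from 76085090 to 76097159 (ENSMUSG00000033208). Its level was 11, 11.2, 14.3, 14.8 and 9.47 CPM in WT replicates 1 to 5, and 6.29, 9.15, 11, 11.5 and 9.85 CPM in *mEC1dup/dup* replicates 1 to 5. WT replicates 3 and 4 were above every *mEC1dup/dup* library, *mEC1dup/dup* replicates 1 and 2 were below every WT library, and the other 6 libraries overlapped. This gave a log2 fold change of -0.35 (SE 0.16, 95% interval -0.70 to 0.01, adjusted p = 0.320 in the edgeR test). It stayed below 0 with each library left out in turn, from -0.42 to -0.23, the smaller size without *mEC1dup/dup* replicate 1, and was -0.15 without WT replicate 4 and *mEC1dup/dup* replicate 1 together.

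*Mbp* encodes myelin basic protein, and longer transcripts of the same locus encode golli proteins in cells that make no myelin. It lies on the plus strand of chromosome 18 from 82493207 to 82603763 (ENSMUSG00000041607), and the counts pool all of its transcripts. Its level was 22, 19.8, 16.2, 29.6 and 17.7 CPM in WT replicates 1 to 5, and 13.9, 16.9, 15.6, 20.9 and 19.7 CPM in *mEC1dup/dup* replicates 1 to 5. WT replicate 4 was again the highest library and *mEC1dup/dup* replicate 1 the lowest. The log2 fold change was -0.28 (SE 0.16, 95% interval -0.61 to 0.06, adjusted p = 0.430 in the edgeR test), -0.12 without WT replicate 4, and -0.05 without both libraries. An antisense transcript, *Gm58827*, overlaps 5.68% of its exonic bases.

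**Figure D2:**
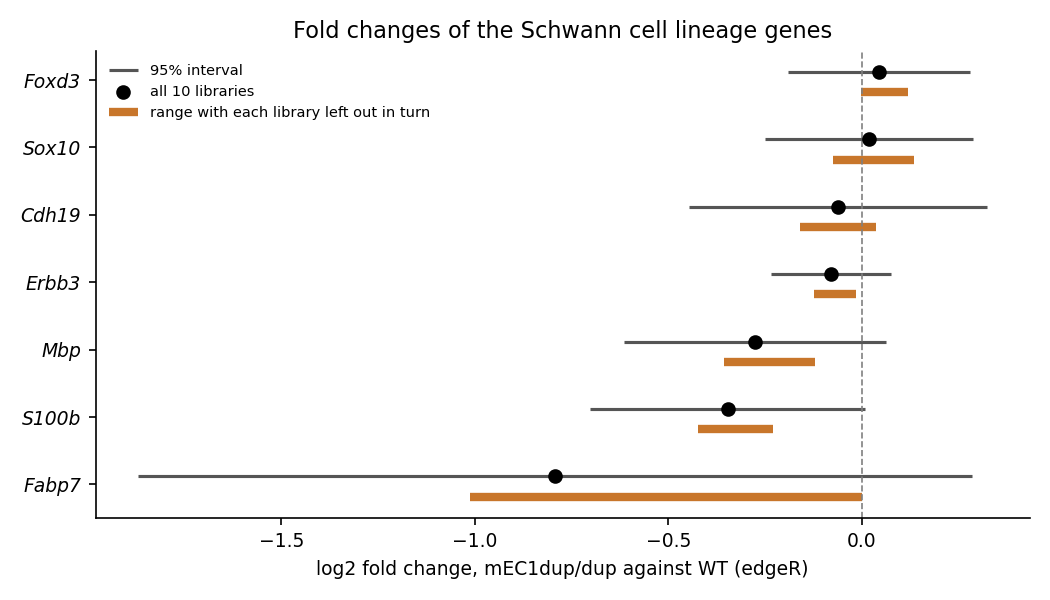
Log2 fold changes of *mEC1dup/dup* against WT (x axis) for the 7 genes from edgeR's quasi-likelihood test. Black points are estimates from all 10 libraries, grey lines 95% intervals, and orange bars the range of estimates with each library left out in turn. All 7 intervals include 0, and the orange bar of *Fabp7* runs from -1.01 to 0.0017.

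A wider list of 35 Schwann cell genes was read beside these 7. It holds 22 genes of precursors and immature cells and 13 genes of peripheral myelin, and 32 of the 35 passed the filter. Of these 32, 29 had a log2 fold change below 0 (90.6%, against 51.2% of all tested genes), and the median was -0.25. At an unadjusted p under 0.05, 12 of the 32 were lower and 0 higher, against 9.08% (lower) and 7.1% (higher) of all tested genes. Several lists of other cell types lay mostly below 0 too, with 9 of 10 melanoblast genes (median -0.24), 15 of 16 neuron and axon genes (median -0.60), 12 of 13 chondrocyte genes (median -0.42) and 7 of 8 epithelial genes (median -0.47), though without WT replicate 4 only 4 of the neuron and axon genes did (median 0.18). Of the haematopoietic genes 4 of 5 lay below 0 (median -0.05), and of the inner ear genes 0 of 11 did (median 0.27, and 0.02 with 5 of 11 below 0 without *mEC1dup/dup* replicate 4). Most were small differences that did not pass the adjustment: 1 gene, *Mal*, was called lower and 0 were called higher by edgeR. The same counts came from limma-voom, while DESeq2 called 4 lower and 0 higher. The shift was smaller without WT replicate 4, where 25 of the 32 lay below 0 with a median of -0.12, and without *mEC1dup/dup* replicate 1 as well, where 22 did with a median of -0.13. Without *mEC1dup/dup* replicate 1 alone, 27 lay below 0 with a median of -0.25 and 6 were called lower.

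*Mal*, which encodes a membrane proteolipid of compact myelin and of the apical membrane of epithelia, had 5.96 ± 0.701 CPM in WT and 3.36 ± 0.886 CPM in *mEC1dup/dup* (SD, n = 5 each). Its single values were 6.99, 5.59, 6.01, 5.10 and 6.09 CPM in WT replicates 1 to 5, and 2.57, 2.98, 2.66, 4.05 and 4.55 CPM in *mEC1dup/dup* replicates 1 to 5. Every *mEC1dup/dup* library lay below every WT library. The log2 fold change was -0.82 (SE 0.17, Benjamini-Hochberg adjusted p = 0.0260 in the edgeR test). *Mal* was called in 16 of 25 settings in all and was below 0 in 24, with 0.65 (adjusted p = 0.909 in edgeR) when the embryonic share of globin counts was a covariate. It was still called in 4 of the 10 fits with 1 library left out, with adjusted p from 0.0166 to 0.0817 and log2 fold changes from -0.96 to -0.74, and the call was lost without WT replicate 1, 2, 3 or 5 or *mEC1dup/dup* replicate 2 or 3. Of 8 epithelial genes, 7 had a log2 fold change below 0, and *Krt5*, *Krt14* and *Perp* were called lower. The number called fell to 1 without WT replicate 2 or any 1 of *mEC1dup/dup* replicates 2 to 5, and rose to 6 without WT replicate 4 and to 5 without WT replicate 5. The part of epithelium in the difference of *Mal* was not tested.

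Among the precursor genes 0 of 22 were called by the main edgeR test or limma-voom, and 2 by DESeq2. At an unadjusted p under 0.05 in edgeR, 9 of the 22 were lower and 0 higher, against 9.08% (lower) and 7.1% (higher) of all tested genes. In other edgeR fits, 4 were called lower without *mEC1dup/dup* replicate 1, and 5 without WT replicate 4 as well. The replicate block gave 5, the likelihood ratio test 2, and the fits without the filter or without WT replicate 3 gave 1 each. Each other fit with 1 library left out gave 0. The 4 precursor genes with the highest mean CPM were *Serpine2*, *Ngfr*, *Gap43* and *Zeb2*, and their groups overlapped. *Ngfr*, the p75 neurotrophin receptor of neural crest and glial cells, had 150 ± 30 CPM in WT and 130 ± 15.8 CPM in *mEC1dup/dup* (SD, n = 5 each), and its log2 fold change was -0.21 (SE 0.12, adjusted p = 0.427). *Serpine2*, a protease inhibitor, had 176 ± 7.38 and 174 ± 12.6 CPM (SD, n = 5 each), and its log2 fold change was -0.01 (adjusted p = 0.925). *Gap43*, a growth-cone protein that glial precursors also make, showed a log2 fold change of -0.27 (adjusted p = 0.532), and *Zeb2*, a transcription factor needed for myelination, one of -0.09 (adjusted p = 0.468).

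Other members of the wider list came near the threshold and are named here after their values were seen. *Ptprz1*, a receptor phosphatase of glial cells, had 21.4 ± 3.31 CPM in WT and 16.5 ± 0.852 CPM in *mEC1dup/dup* (SD, n = 5 each), and its log2 fold change was -0.37 (SE 0.10, adjusted p = 0.0618). *Cryab*, a small heat-shock protein made by precursors but also by muscle and lens, had a log2 fold change of -0.42 (SE 0.11, adjusted p = 0.0612). *Pmp22*, a peripheral myelin protein that mesenchyme also makes, had a log2 fold change of -0.22 (SE 0.06, adjusted p = 0.0565). For these 3 genes every *mEC1dup/dup* library lay below every WT library. They were not called by the main quasi-likelihood test of edgeR or by limma-voom, and were called by DESeq2 and by edgeR's likelihood ratio test. Other quasi-likelihood fits called *Cryab* without the filter, and *Cryab* and *Ptprz1* with the replicate block. *Ptprz1* was called without WT replicate 3, *Pmp22* without WT replicate 4, and *Cryab* and *Pmp22* without *mEC1dup/dup* replicate 1. The other fits with 1 library left out called none of the 3.

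Genes of peripheral myelin ranged from undetected to well expressed. Their summed level was 232 to 253 CPM in WT and 204 to 222 CPM in *mEC1dup/dup*, and the groups did not overlap. *Prx*, a cytoskeletal linker of myelinating Schwann cells, had 396 to 517 counts in each library. *Drp2*, its partner, stood at 28.0 ± 1.85 CPM in WT and 26.4 ± 2.83 CPM in *mEC1dup/dup*, and *Cnp*, a phosphodiesterase of myelinating glia, at 31.7 ± 3.55 and 31.3 ± 2.17 CPM (SD, n = 5 each). Some of the other genes on the list were low in both genotypes. *Pmp2*, a fatty acid carrier of compact myelin, had 0 counts in all 10 libraries, and *Gjb1* and *Cldn19*, which encode junction proteins of myelinating cells, had at most 10 counts in any library and did not pass the filter. *Mag*, the adhesion protein of the inner myelin wrap, stood at 1.61 ± 0.693 CPM in WT and 1.15 ± 0.542 CPM in *mEC1dup/dup* (SD, n = 5 each), and its log2 fold change was -0.49 (SE 0.37, adjusted p = 0.577). *Egr2*, the transcription factor that switches on myelin genes, stood at 3.50 ± 0.603 and 2.64 ± 0.587 CPM (SD, n = 5 each), and its log2 fold change was -0.41 (SE 0.19, adjusted p = 0.308).

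**Figure D3:**
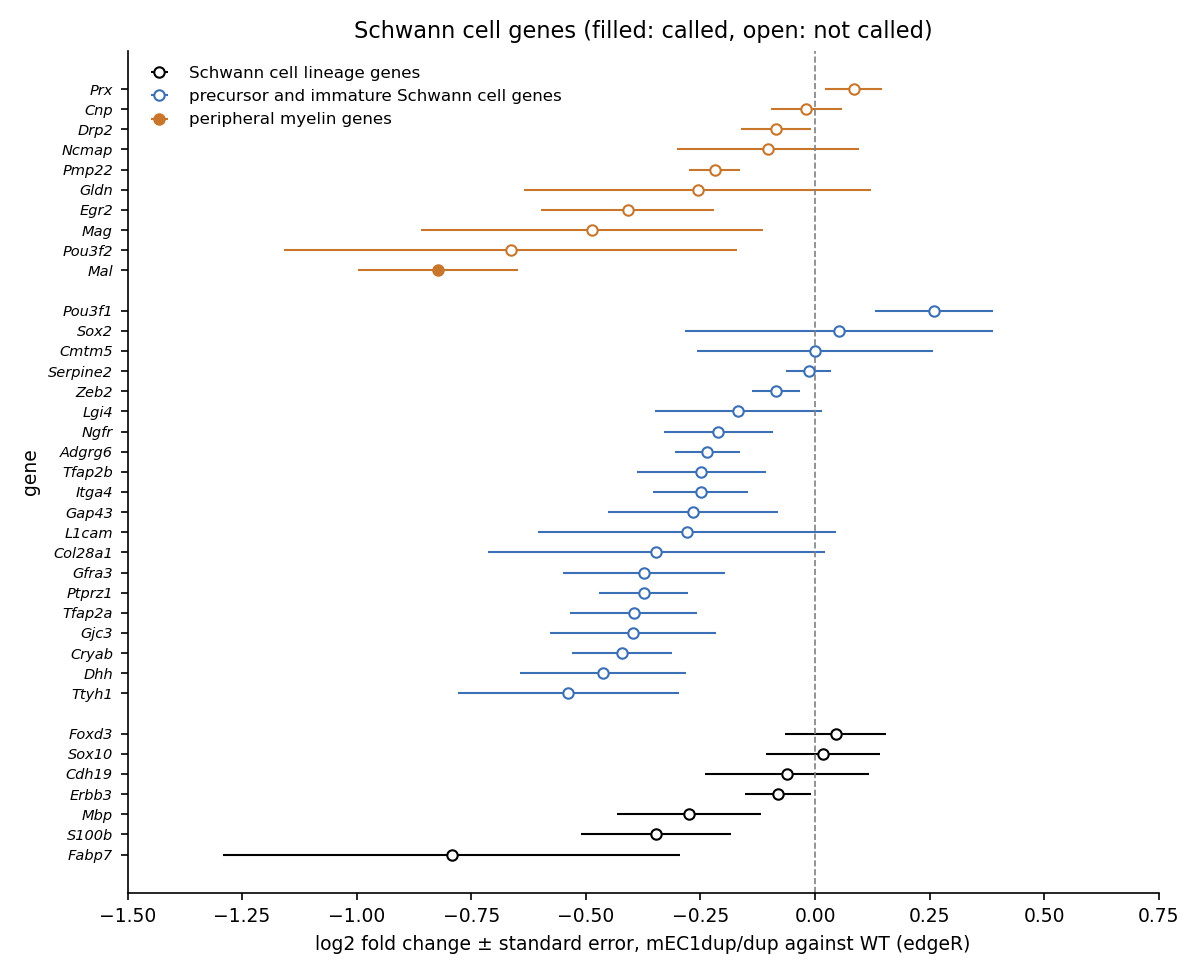
Log2 fold changes (x axis, mEC1dup/dup against WT, edgeR) of the 7 Schwann cell lineage genes (black), 20 of the 22 tested precursor and immature Schwann cell genes (blue) and the 10 peripheral myelin genes that passed the filter (orange), bars showing ± standard error. Only the point of *Mal* is filled, as the 1 gene called, and 27 of the 30 coloured points lie left of 0. Of all 32 tested genes of the wider list, drawn or not, 29 lie below 0.

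The 7 genes did not vary together as 1 group across the libraries. Pearson correlations between their log2 CPM over the 10 libraries, after each genotype's mean was removed, ranged from -0.23 for *Cdh19* with *Erbb3* to 0.90 for *Fabp7* with *Mbp*. *Sox10* had an r of 0.75 with *S100b*, 0.68 with *Mbp* and 0.58 with *Fabp7* (rho 0.88), and of 0.19 with *Erbb3*. The highest r of *Foxd3* was 0.51, with *Erbb3*. Correlations over 10 libraries that share tissue and depth are given as descriptions.

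*Fabp7* varied with genes of neurons and with the precursor genes of the wider list. Its r with the summed level of those 22 genes was 0.84 (rho 0.71). It was 0.60 without WT replicate 4, and 0.97 without *mEC1dup/dup* replicate 1 as well. That sum holds *Gap43*, a growth-cone protein, which had 233 CPM in WT replicate 4 and 112 to 136 CPM in the other WT libraries. The relation of *Fabp7* with the precursor genes can thus not be told apart from that with genes of neurons. The summed level of 16 neuron and axon genes was 592, 338, 316, 1543 and 668 CPM in WT replicates 1 to 5, and 399, 414, 405, 738 and 679 CPM in *mEC1dup/dup* replicates 1 to 5. The order of the libraries was nearly that of *Fabp7*: r was 0.99 over all 10 libraries (Spearman's rho 0.99), 0.98 without WT replicate 4 and 0.99 without both libraries that stood apart, and 14 of the 16 genes had an r with *Fabp7* above 0.8. They include *Tubb3*, a neuronal tubulin, at 10.7 to 243 CPM in WT and 26.3 to 98.8 CPM in *mEC1dup/dup*, and *Prph*, an intermediate filament of peripheral neurons, at 5.16 to 162 CPM in WT and 11.7 to 52.4 CPM in *mEC1dup/dup*. *Mbp* had an r of 0.85 (rho 0.83) with the same sum, 0.67 without WT replicate 4. Of the 16 neuron and axon genes 0 were called by edgeR or limma-voom and 1, *Ntrk2*, by DESeq2, and 1 passed an unadjusted p under 0.05 in edgeR. Their median log2 fold change over all libraries was -0.60 in edgeR, -0.18 with limma-voom and -0.20 with the replicate block. With *Xist* as a covariate the median was 0.12 and 6 of the 16 lay below 0. With the embryonic share of globin counts as a covariate it was -2.56 and 15 did. In edgeR it was 0.18 without WT replicate 4, and 0.35 without *mEC1dup/dup* replicate 1 as well. The part of neuronal tissue in the differences of *Fabp7* and *Mbp* was not tested.

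*Sox10* varied with both neuron and inner ear genes. Its r with the sum of the neuron and axon genes was 0.52 (rho 0.85), and 0.77 without *mEC1dup/dup* replicate 1. With the sum of the 22 precursor genes of the wider list, r was 0.08 (rho 0.39), and 0.74 without that library. With genes of the inner ear its r was higher than with the neuron and axon genes, at 0.96, but its rho was lower, at 0.73. The inner ear is lined by an epithelium where *Sox10* is also expressed. The list of 11 inner ear genes was written after the genes most like *Sox10* had been seen, and *Pax2*, *Fbxo2*, *Cldn9* and *Otogl* are on it for that reason, with r of 0.99, 0.98, 0.98 and 0.97 with *Sox10*. The r of the list is thus partly fixed by that choice, and none is given without these genes. The summed level of the 11 genes was 315, 240, 299, 294 and 305 CPM in WT replicates 1 to 5, and 71.7, 322, 314, 531 and 339 CPM in *mEC1dup/dup* replicates 1 to 5. *mEC1dup/dup* replicate 1 was the lowest and *mEC1dup/dup* replicate 4 the highest library in both this sum and *Sox10*. The r between them was 0.96 (rho 0.73), and 0.85 without *mEC1dup/dup* replicate 1. Most of the sum came from *Oc90*, an otoconial protein of the inner ear, which had 175 to 229 CPM in WT and 39.0 to 338 CPM in *mEC1dup/dup*. *Otogl* and *Tecta*, which encode matrix proteins of the inner ear, were detected in all 10 libraries, and the tissue that their reads came from was not tested. None of the 11 was called by edgeR, DESeq2 or limma-voom, and 0 passed an unadjusted p under 0.05 in edgeR. With WT replicate 4 and *mEC1dup/dup* replicate 1 both left out, *Cldn9* and *Lmx1a* were called higher, and *Sox10* had a log2 fold change of 0.17 (SE 0.07, adjusted p = 0.185). The part of inner ear tissue in the level of *Sox10* was not tested.

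**Figure D4:**
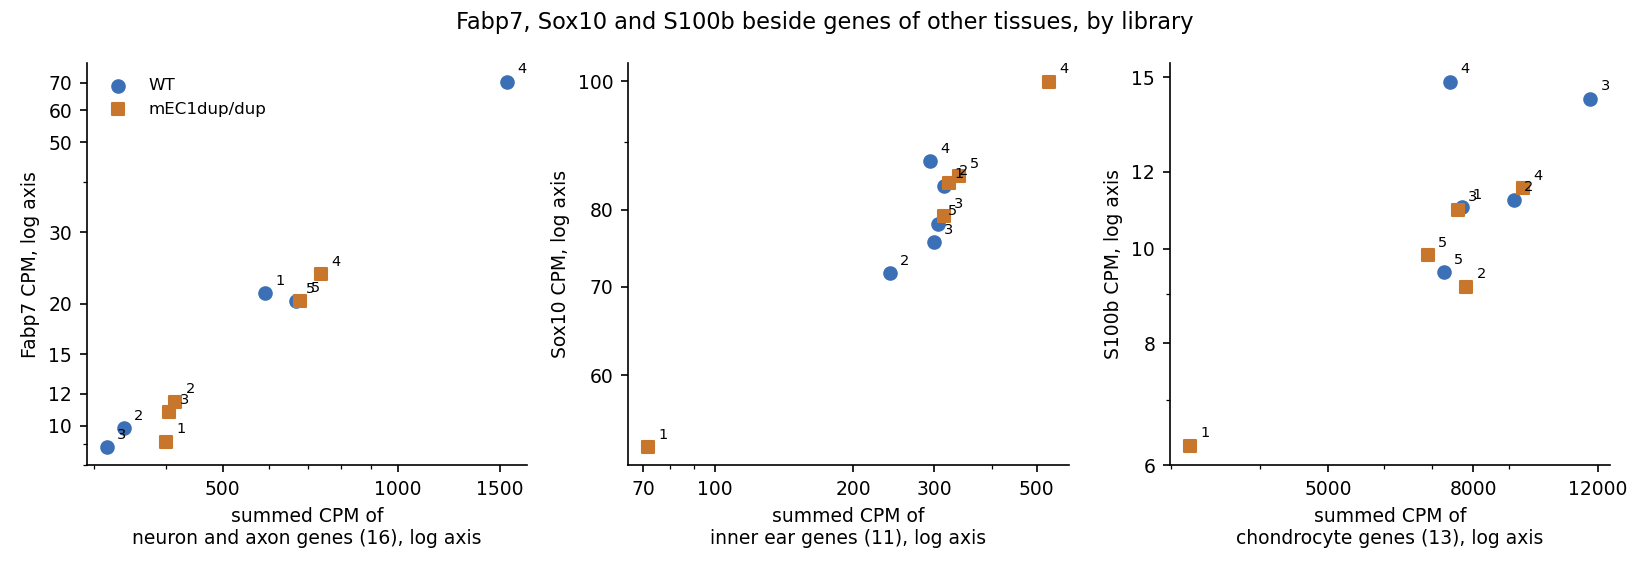
Each point is 1 library (WT blue circles, *mEC1dup/dup* orange squares, numbered by replicate), with the CPM of *Fabp7*, *Sox10* or *S100b* on the y axis and the summed CPM of neuron and axon, inner ear or chondrocyte genes on the x axis, all axes logarithmic. WT replicate 4 lies at the upper right for *Fabp7*, and *mEC1dup/dup* replicate 1 at the lower left for *Sox10* and *S100b*.

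*S100b* varied with genes of cartilage. The summed level of 13 chondrocyte genes was 7710, 9133, 11696, 7421 and 7273 CPM in WT replicates 1 to 5, and 3189, 7821, 7609, 9402 and 6911 CPM in *mEC1dup/dup* replicates 1 to 5. Its r with *S100b* was 0.79 (rho 0.60), 0.48 without *mEC1dup/dup* replicate 1 and 0.94 without WT replicate 4. Of the 13 genes, 12 had a log2 fold change below 0 with a median of -0.42, and 1, *Snorc*, was called lower. Without *mEC1dup/dup* replicate 1 the median was -0.22, and *Snorc* was not called without WT replicate 3 (adjusted p = 0.0557), *mEC1dup/dup* replicate 3 (adjusted p = 0.0627) or *mEC1dup/dup* replicate 4 (adjusted p = 0.0573) in edgeR. The r of *Sox10* with this sum was 0.76 (rho 0.33) and turned to -0.06 without *mEC1dup/dup* replicate 1, so that relation rested on 1 library. The part of cartilage in the difference of *S100b* was not tested.

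The melanoblast genes, whose cells share *Sox10* and a neural crest origin with glia, had a summed level of 178 ± 10.2 CPM in WT and 151 ± 7.76 CPM in *mEC1dup/dup* (SD, n = 5 each). Every *mEC1dup/dup* library lay below every WT library in this sum, at 143 to 164 CPM against 167 to 190 CPM. The same held for the sum of the peripheral myelin genes, while the groups overlapped in the sums of the other lists. No test was run on the sums. Of 10 melanoblast genes 0 were called by edgeR or limma-voom and 1, *Kit*, by DESeq2. At an unadjusted p under 0.05 in edgeR 3 of the 10 were lower, against 9.08% of all tested genes. *Kit*, the receptor that melanoblasts depend on, showed a log2 fold change of -0.32 (adjusted p = 0.0724 from edgeR). Their sum had an r of 0.55 with *Sox10*, and 0.89 without *mEC1dup/dup* replicate 1. Among haematopoietic genes, *Csf1r*, the receptor that macrophages depend on, had 43.2 ± 5.04 CPM in WT and 42.7 ± 4.54 CPM in *mEC1dup/dup* (SD, n = 5 each), and *C1qa*, a complement gene of macrophages, 19.7 ± 1.96 and 19.9 ± 0.373 CPM (SD, n = 5 each). *Cd3e*, which marks T lymphocytes, had at most 5 counts in any library, and 0 of the 5 haematopoietic genes that passed the filter were called by edgeR, DESeq2 or limma-voom, with 0 at an unadjusted p under 0.05 in edgeR.

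**Figure D5:**
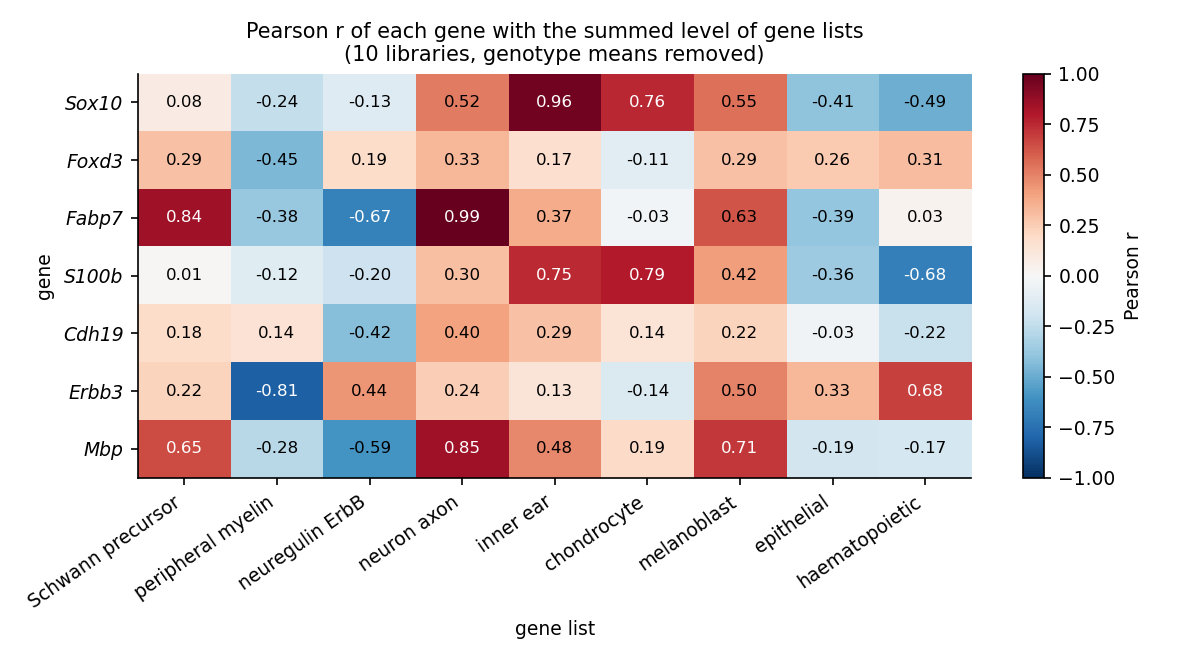
Pearson r between log2 CPM of each Schwann cell lineage gene (rows) and the log2 summed CPM of each gene list (columns) over 10 libraries with genotype means removed, on a colour scale from -1 to 1. The highest values are 0.99 for *Fabp7* with neuron and axon genes and 0.96 for *Sox10* with inner ear genes, a list that holds 4 genes chosen for their likeness to *Sox10*, while *Foxd3* and *Cdh19* stay below 0.5 in every column.

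The genes whose profile was most like the mean of the 7 were *Tbc1d9*, *Scrt2*, *Srcin1*, *Pcsk2* and *Srrm3*, with r of 0.97, 0.97, 0.97, 0.97 and 0.96 over the 10 libraries among 14077 genes compared. *Scrt2*, a transcriptional repressor of newly born neurons, had 14.51 CPM in WT replicate 4 and 0.857 to 5.29 CPM in the other 9 libraries. *Tbc1d9* had 36.9 CPM in WT replicate 4 and 16.9 to 27.8 CPM elsewhere. *Fabp7* weighs most in this mean, since the SD of its log2 CPM was 1.19 in WT and 0.60 in *mEC1dup/dup*, against at most 0.34 for each of the other 6 genes. The mean log2 CPM of the 7 genes was itself highest in WT replicate 4, at 4.77, and lowest in *mEC1dup/dup* replicate 1, at 3.82, the libraries that stood apart in neuron and in cartilage and inner ear genes.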

How the data were processed

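Bulk RNA-seq of 5 WT and 5 *mEC1dup/dup* E14.5 pinna prominences was analysed from the raw counts per gene that the authors deposited, which carry no normalization. Per the labels and the study's methods, the authors selected poly-A RNA, used fastp to trim the reads, STAR to place them on GRCm39 and featureCounts to count them on genes. The annotation release, the use of strand and the handling of reads with several matches are not given in the sources used here. The labels and the methods name different library kits. Every column was assigned to a genotype and a replicate by its label. Symbols, positions and exonic lengths came from the GENCODE annotation of GRCm39, which matched 49355 of 53465 genes (0.111% of counts lay outside these).

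Counts were filtered with filterByExpr by genotype, normalized by TMM and fitted with genotype as the only term in edgeR version 4.0.16 (R version 4.3.3), with glmQLFit, glmQLFTest and Benjamini-Hochberg adjustment over 16426 genes. The methods name limma and edgeR without a test. Calls needed an adjusted p not above 0.05 and an average log2 CPM of 1 or more. Standard errors are the log2 fold change divided by the square root of F, and 95% intervals use the t distribution with the moderated degrees of freedom. Correlations used log2 CPM with a prior count of 2 minus genotype means, against log2 summed CPM of a list. Total counts of 17461544 to 18462073 per library limit the precision of low genes. Without molecular identifiers, copies made in amplification cannot be told from reads of separate molecules.

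The 7 genes were listed by symbol with no threshold on values, but they and the lists were chosen with earlier results of these data known. Genes named were the 7, *Hmx1*, *Xist*, from each list every called gene or otherwise up to 4 of the highest CPM, defining markers, and the 5 tested genes most like the mean of the 7, and others are named as chosen after their values were seen. The inner ear list and 2 choices of libraries, given in the closing section, were added after seeing the data. Alternatives were other normalizations, DESeq2 (version 1.42.0), limma-voom (limma version 3.58.1), edgeR's likelihood ratio test, other filters and thresholds, the replicate number as a block, 2 covariates and each library left out in turn. On simulated counts, where 200 of 16251 genes were changed by 1 on the log2 scale, 89.5% of these were called, with 6 false calls. Smaller changes, such as those estimated for the 7 genes, were not simulated. Figures were drawn with matplotlib version 3.10.9. The single-cell data were not analysed here. Single values of some genes on the lists are not reported here, and the genes stay in the counts and sums of their lists.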

Additional observations from a re-analysis of the deposited data

Results flagged for a closer look

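Of 30 groups of 5 libraries examined for single values, 4 had 1 library far from the others by Dixon's test, which flags about 1 group in 20 by chance. *Fabp7* in WT had 70.5 CPM in replicate 4, with a gap to the next library of 0.80 of the whole range. The summed level of the neuron and axon genes in WT was 1543 CPM in the same library (gap 0.713 of the range). The summed level of the epithelial genes in *mEC1dup/dup* was 928 CPM in replicate 1 (gap 0.835 of the range), and that of the peripheral myelin genes was 204 CPM in replicate 5 (gap 0.723 of the range).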

How the results depend on the processing

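No Schwann cell lineage gene was called under any of the 24 other settings. With each library left out in turn, log2 fold changes ranged from -0.073 to 0.14 for *Sox10*, -0.0027 to 0.12 for *Foxd3*, -1.01 to 0.0017 for *Fabp7*, -0.42 to -0.23 for *S100b*, -0.16 to 0.036 for *Cdh19*, -0.12 to -0.014 for *Erbb3* and -0.36 to -0.12 for *Mbp*. *Sox10* changed sign to -0.0062 with limma-voom. *Erbb3* changed sign to 0.033 with *Xist* (log2 CPM) and to 0.61 with the embryonic share of globin counts as covariates in separate fits, and to 0.053 in libraries with at most 5 *Xist* counts. *Fabp7* was -0.45 with limma-voom, -0.52 with the replicate block, -0.18 with *Xist* and -2.71 with the globin share. With WT replicate 4 and *mEC1dup/dup* replicate 1 both left out, it became 0.14 and *Cdh19* 0.10. The 2 choices of libraries, this one and at most 5 *Xist* counts, were made after seeing the data, and the cause of the changes was not tested.

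The wider Schwann cell list had 1 gene called lower, 4 with DESeq2, 4 with the likelihood ratio test, 2 without the filter, 4 at an adjusted p of at most 0.1, 0 with either covariate, 7 without both libraries, 0 in libraries with at most 5 *Xist* counts, and 0 to 6 with 1 library left out. Neuron and axon genes called lower were 1 with DESeq2, the likelihood ratio test or an adjusted p of at most 0.1, and 0 to 1 with 1 library left out. Epithelial genes called lower, 3 in the main test, were 1 to 6 with 1 library left out and 0 with either covariate. They were 4 with DESeq2, and 6 with the likelihood ratio test, without the filter or at an adjusted p of at most 0.1. With the replicate block or without both libraries they were 7. With the globin share, 0 of 8 epithelial (median 0.64), 2 of 10 melanoblast (0.45) and 7 of 13 chondrocyte genes (-0.05) lay below 0. No chondrocyte gene was called with either covariate. Over all genes, 297 were lower and 137 higher. These became 510 and 321 with DESeq2, 447 and 219 with the likelihood ratio test, 488 and 324 at an adjusted p of at most 0.1, 1 and 2 with *Xist*, 0 and 0 with the globin share, 562 and 251 without both libraries, 0 and 0 in libraries with at most 5 *Xist* counts, and 120 to 476 and 34 to 179 with 1 library left out. The setting of at most 5 *Xist* counts keeps a single *mEC1dup/dup* library, which is assumed to vary like WT. The globin share separates the genotypes in all 10 libraries and *Xist* in all but *mEC1dup/dup* replicate 5, so neither can be told apart from genotype there. *Hmx1* kept its direction, with 0.34 under the globin share and 0.99 in libraries with at most 5 *Xist* counts, and lost its call in both.

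The replicate numbers were not taken to pair the embryos, since no label ties them and not every pair's correlation was above 0.1. Deviations of same-numbered libraries had correlations of -0.0558 to 0.345 (mean 0.162, against -0.0403 for other pairs), and 4 of the 10 libraries correlated best with their own number. With the replicate block, 487 genes were called lower, 6 of them on the wider list, *Sox10* had a log2 fold change of -0.0016, and no Schwann cell lineage gene was called, with *S100b* and *Mbp* at an unadjusted p under 0.05. Depth limits *Cdh19* most, at 45 to 80 counts. The sign of *Fabp7* turned without WT replicate 4, that of *Sox10* without WT replicate 2 or *mEC1dup/dup* replicate 4 or 5, that of *Cdh19* without WT replicate 4 or *mEC1dup/dup* replicate 1, and that of *Foxd3* without *mEC1dup/dup* replicate 5.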

Other observations

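*Foxd3* and *Erbb3*, the genes least tied to *Sox10* and *Fabp7* across libraries, varied with none of the gene lists for neurons, inner ear or cartilage at an r above 0.34 over all 10 libraries. Without WT replicate 4, their r with the neuron and axon genes was 0.57 and 0.63. The summed level of the peripheral myelin genes had an r of -0.81 with *Erbb3*, and -0.88 without WT replicate 4 and *mEC1dup/dup* replicate 1. *Pmp22*, which mesenchyme also makes, held 134 of the mean 241 CPM of that sum in WT and 115 of 216 CPM in *mEC1dup/dup*. No r is given without *Pmp22*. The summed level of the haematopoietic genes had an r of 0.68 with *Erbb3* and -0.68 with *S100b*, and of 0.88 and -0.44 without *mEC1dup/dup* replicate 1. These values are descriptions over 10 libraries.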
